A study of Mus musculus with 15 samples.

Results

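Transcripts of the water channels, vasopressin receptors and urea transporter of the kidney were measured in whole kidney RNA of 15 mice on a 1-colour expression array. The 10 genes are Aqp1, Aqp2, Aqp3, Aqp4, Aqp6, Aqp7, Aqp11, Avpr2, Avpr1a and Slc14a2. They were taken by name, each has 1 probe set annotated to it alone, and they stand among 22180 genes on 23521 probe sets with a single gene symbol. The 7 wild-type mice (Grhl1+/+, replicates 1 to 7) and the 8 knockout mice (Grhl1-/-, replicates 8 to 15) were all about 6 months old. Grhl1, a member of the grainyhead-like family, is a transcription factor made in epithelia, and the single question of the design is which kidney transcripts differ without it. The labels give no treatment, strain, sex or litter, and do not say which part of Grhl1 was deleted or whether the deletion was limited to a cell type. Levels are RMA values on the log2 scale, a difference gives knockout minus wild type unless another direction is named, and values with ± are means with the standard deviation (SD) over animals.

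Water is taken back from the filtrate in stages. In the proximal tubule and the thin descending limb it crosses the cells through constitutive channels, chiefly Aqp1. In the collecting duct it follows antidiuretic hormone, vasopressin: the hormone binds the receptor Avpr2 on principal cells, cyclic AMP and protein kinase A are activated, vesicles that carry Aqp2 fuse with the apical membrane, and water leaves the cell through Aqp3 and Aqp4 in the basolateral membrane. Vasopressin also opens the urea transporters encoded by Slc14a2 in the inner medulla, where urea helps to build the gradient that draws water out.

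The kidneys differed in ways that cross the genotypes and touch these genes. Grhl1 itself read 4.96 to 5.25 in the wild-type and 4.40 to 4.92 in the knockout kidneys, without overlap (difference -0.38, SE 0.070), although its limma adjusted p was 0.113. Y-linked transcripts were present in 10 kidneys (means of 3 genes from 8.37 to 8.68) and low in 5 (3.96 to 4.26), namely replicates 6 and 7 of the wild type and 13, 14 and 15 of the knockouts, where Xist read 11.4 to 11.6. Liver transcripts were high in 3 kidneys (replicates 3, 7 and 10) and adrenal cortex transcripts in 6 (replicates 2, 3 and 10 to 13). Defining markers of the tissue were bright, with list means of 12.4 to 12.5 for proximal tubule and 8.83 to 9.35 for principal cells. All 10 genes lay above 5.55, the median of all values, on average, whereas Grhl1 lay below it in every kidney, wild type included.

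No gene of the set passed the test for a difference between Grhl1 genotypes. In limma, a linear model with shared variance across probe sets, 0 of the 10 passed a Benjamini-Hochberg adjusted p of 0.05 over all 23521 probe sets, where 3 did (0.0128%; 0.00425% higher and 0.0085% lower in knockout kidneys). At an unadjusted p under 0.05 there was 1 of 10, Aqp7, against 5.55% of all probe sets. An exact rank-sum test also called 0 of the 10 and 0 of all probe sets, with 1 of the 10 and 1123 of all at an unadjusted p under 0.05. The groups overlapped for each of the 10 genes, while 29 of all probe sets (0.123%) separated them. The differences ran from -0.31 for Aqp6 to 0.19 for Aqp7. They were above 0 for 8 of 10, against 54.6% of all probe sets. The median was 0.027, beside 0.0083 over all probe sets. The 95% intervals, each for 1 gene and not adjusted, describe RMA values of whole kidney RNA. They reached no further than 0.13 on either side for Aqp1, 0.17 for Aqp11 and 0.25 for Avpr2 and Avpr1a. They reached 0.31 for Aqp2 and Aqp3, 0.32 for Slc14a2 and 0.33 for Aqp7, but extended to -0.66 for Aqp4 and -0.69 for Aqp6.

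**Figure D1:**
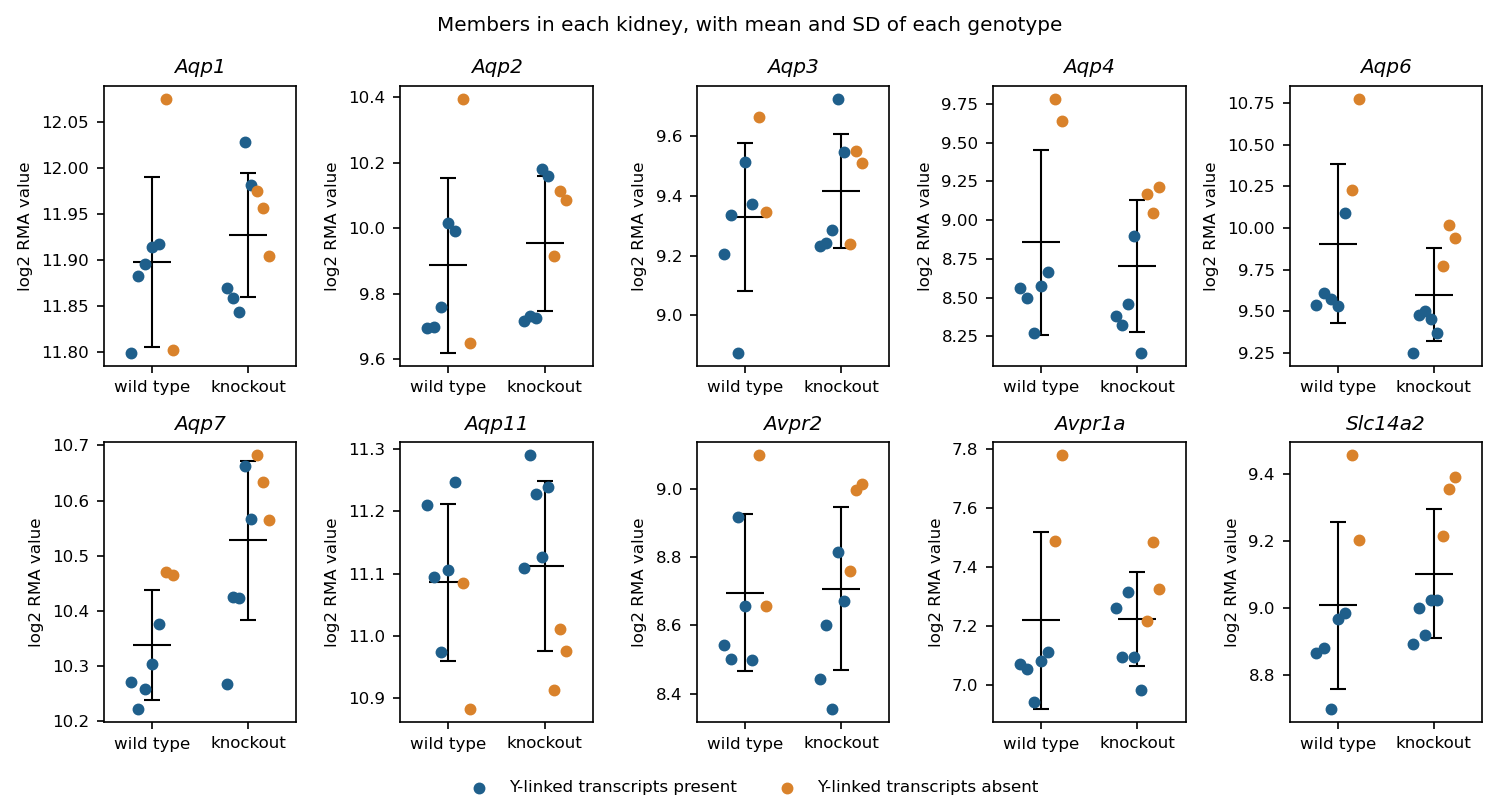
Log2 value of each gene in each kidney, by genotype (7 wild type, 8 knockout), with 1 panel and its own axis per gene. Points are animals, coloured by whether Y-linked transcripts were present (10) or absent (5), and bars give the mean ± SD. The genotypes overlap in every panel, and for Aqp4 and Slc14a2 the 5 kidneys without Y-linked transcripts lie above the other 10.

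Among the genes of the proximal tubule, Aqp7 had the smallest unadjusted p of the 10. Aqp7 encodes a channel for water and glycerol of the proximal straight tubule and is also the glycerol channel of fat cells. The wild-type kidneys ran from 10.22 through a median of 10.30 to 10.47, and the knockout kidneys from 10.27 through 10.57 to 10.68. Of the 8 knockout kidneys, 7 lay above the wild-type median and 5 above every wild type, while replicates 8, 9 and 10 lay within the wild-type range. The means were 10.34 ± 0.10 (n = 7) and 10.53 ± 0.14 (n = 8), a difference of 0.19 (SE 0.066, 95% interval 0.051 to 0.33), or 1.14-fold, with an exact two-sided permutation p of 0.0166 and a limma adjusted p of 0.727. Among the 10 kidneys that held Y-linked transcripts the difference was 0.18, and among the other 5 it was 0.16. It was 0.095 without the 6 kidneys that held adrenal cortex transcripts, 4 of them knockouts. In that smaller set the unadjusted limma p was 0.297, against 0.0106 over all 15 kidneys. Fat genes were measured beside it. The 5 genes of the brown fat list averaged 6.96 to 7.88 in wild-type and 7.55 to 8.55 in knockout kidneys. All 5 were higher in knockout kidneys, against 54.6% of all probe sets, though none passed in limma (smallest adjusted p = 0.274). At an unadjusted limma p under 0.05 there were 3 of the 5, against 5.55% of all probe sets. Ucp1 (1.28, SE 0.28) and Elovl3 (1.32, SE 0.31) had the largest differences, and the other brown fat genes lay between 0.22 and 0.28. White and general fat genes, 6 of 7 measured, averaged 7.93 to 8.63 (mean 8.28) and 7.80 to 8.75 (mean 8.26). The one with the smallest unadjusted p, the hormone gene Lep, lay at -0.68 (limma adjusted p = 0.610), and the 5 others had differences above 0. Over the 15 kidneys Aqp7 correlated with the brown fat mean (r = 0.58, permutation p = 0.0238, adjusted p = 0.0475 over 2 relations; rho = 0.54, p = 0.042, adjusted p = 0.0554), with r = 0.50 without the 2 most extreme kidneys and r = 0.66 within the 10 with Y-linked transcripts, where it did not pass (permutation adjusted p = 0.0756; rho = 0.55, adjusted p = 0.208). For the white fat mean r was 0.51 (permutation p = 0.0502, adjusted p = 0.0502; rho = 0.51, p = 0.0554), and -0.065 within those 10. Both relations pool the genotypes, and the brown fat mean, like Aqp7, was higher in knockout (8.07) than in wild-type kidneys (7.40). Within a genotype no r was computed. Wild-type replicates 6 and 7, the highest wild types for Aqp7, had brown fat means of 7.29 and 7.10, below the wild-type median of 7.40. Knockout replicate 13 was the highest of its group for both Aqp7 (10.68) and brown fat (8.55). The part of fat or adrenal tissue in the Aqp7 difference was not tested.

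The 250 bases before a RefSeq start of Aqp7 (GRCm38.p6, chr4:41048137-41048386, minus strand) are shown. This gene was taken because its unadjusted limma p was the smallest of the set with genotype alone in the fit. Capitals mark TGGAAA at position -234, the core of the site for the osmotic factor Nfat5. They also mark AGATAA at -132, which GATA factors bind. Positions give the first base of a match on the printed strand, with -1 just before the start.
Aqp7: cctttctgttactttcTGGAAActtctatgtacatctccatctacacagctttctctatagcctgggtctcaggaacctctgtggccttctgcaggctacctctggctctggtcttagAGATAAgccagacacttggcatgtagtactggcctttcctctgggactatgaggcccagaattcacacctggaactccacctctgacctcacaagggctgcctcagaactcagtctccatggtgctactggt
Promoter sequences of RefSeq were at hand for 8 of the 10 genes, 9 starts in all, Aqp7 with 2, and each motif was sought on both strands as exact letters. The grainyhead site AACCGGTT was in 0 of the 9 and in 0.116% of 32851 promoters, and AACNGGTT, with 1 free base, in 0 of 9 and 1.79%. TGGAAA was in 1 of 9 and 18.6%, AGATAA in 2 of 9 and 9.99%. These matches describe letters, not binding.

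Of the other genes of the proximal tubule, neither differed by more than its spread among animals. Aqp1, the constitutive water channel of proximal tubule and thin descending limb, ran from 11.80 through 11.90 to 12.07 in wild-type and from 11.84 through 11.93 to 12.03 in knockout kidneys. Its difference was 0.029 (SE 0.047, 95% interval -0.071 to 0.13), with a permutation p of 0.49 in the exact test, and its SD over all 15 kidneys, 0.079, was the smallest of the 10. Aqp11, a channel of intracellular membranes whose loss gives cystic kidneys in mice, ran from 10.88 through 11.10 to 11.25 and from 10.91 through 11.12 to 11.29. It differed by 0.026 (SE 0.068, 95% interval -0.12 to 0.17, limma adjusted p = 0.997). For both genes the knockout kidneys lay within the wild-type range, except replicate 9, which was just above it for Aqp11. The signs of these small differences turned without the kidneys that held adrenal cortex transcripts, to -0.0042 for Aqp1 and -0.0099 for Aqp11, and for Aqp11 also without wild-type replicate 7.

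In principal cells, Aqp2 varied among animals of each genotype more than between genotypes. Aqp2 encodes the apical water channel that vasopressin regulates. Wild-type kidneys ran from 9.65 through 9.76 to 10.40 and knockout kidneys from 9.72 through 9.9995 to 10.18, with means of 9.89 ± 0.27 and 9.95 ± 0.21. The difference was 0.067 (SE 0.11, 95% interval -0.18 to 0.31) and the exact permutation p was 0.595. The kidneys fell on either side of a gap: 7 lay between 9.65 and 9.76 (replicates 1, 2, 3, 7, 8, 9 and 10) and 8 between 9.91 and 10.40 (replicates 4, 5, 6 and 11 to 15), with both genotypes on each side. Aqp3, a basolateral channel for water and glycerol in the same cells, ran from 8.87 through 9.35 to 9.66 in wild-type and from 9.23 through 9.40 to 9.73 in knockout kidneys. It differed by 0.086 (SE 0.11, 95% interval -0.14 to 0.31, exact permutation p = 0.465). Without the kidneys with adrenal cortex transcripts the signs turned, to -0.038 for Aqp2 and -0.037 for Aqp3. Aqp4, the other basolateral channel, which resides mainly in the inner medullary collecting duct, ran from 8.27 through 8.58 to 9.78 and from 8.14 through 8.68 to 9.21. Its difference was -0.15 (SE 0.24, 95% interval -0.66 to 0.36), and without wild-type replicate 6 it was 0.0009.

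The promoters of Aqp1, Aqp2 and Aqp3 are shown side by side because Aqp2 correlated with both other genes among the kidneys, as given below. They are the 250 bases before the RefSeq start in GRCm38.p6 (chr6:55336049-55336298, plus strand for Aqp1; chr15:99578806-99579055, plus strand for Aqp2; chr4:41098184-41098433, minus strand for Aqp3), with matches to the searched motifs in capitals.
Aqp1: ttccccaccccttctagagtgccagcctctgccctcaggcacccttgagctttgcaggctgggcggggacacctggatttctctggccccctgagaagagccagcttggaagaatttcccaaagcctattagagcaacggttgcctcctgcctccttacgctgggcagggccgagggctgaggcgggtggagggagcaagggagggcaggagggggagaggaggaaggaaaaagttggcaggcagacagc
Aqp2: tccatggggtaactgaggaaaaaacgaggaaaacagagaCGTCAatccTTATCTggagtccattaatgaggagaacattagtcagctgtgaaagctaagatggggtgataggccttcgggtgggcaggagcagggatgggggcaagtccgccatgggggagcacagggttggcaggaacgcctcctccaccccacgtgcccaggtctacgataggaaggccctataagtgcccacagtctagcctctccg
Aqp3: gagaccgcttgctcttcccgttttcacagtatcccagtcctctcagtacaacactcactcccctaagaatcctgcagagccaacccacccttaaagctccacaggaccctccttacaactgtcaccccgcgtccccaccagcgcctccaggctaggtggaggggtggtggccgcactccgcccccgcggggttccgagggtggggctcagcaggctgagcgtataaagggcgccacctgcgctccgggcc
Aqp2 holds TGACG, a site for cyclic AMP response element factors in its short form, on the other strand at position -211, and AGATAA on the other strand at -202, a few bases further on. TGACG was in 2 of the 9 promoters (Aqp2 and Avpr1a) and in 17.8% of all, and the full element TGACGTCA in 0 of 9 and 1.55%. Aqp1 and Aqp3 hold none of the letters sought in this window.

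Aqp6, a channel of intracellular vesicles in acid-secreting intercalated cells, had the largest difference of the 10 below 0. It ran from 9.53 through 9.61 to 10.78 in wild-type and from 9.25 through 9.49 to 10.02 in knockout kidneys. The difference was -0.31 (SE 0.18, 95% interval -0.69 to 0.077), and in the exact test the permutation p was 0.145 beside a limma adjusted p of 0.963. Wild-type replicate 7 was the highest kidney, and without it the difference was -0.16. With presence of Y-linked transcripts in the fit it was -0.37 (SE 0.10, unadjusted p = 0.00273, limma adjusted p = 0.263), so it did not pass there either. In that fit 0 of the 10 genes passed, against 0.0638% of all probe sets (0.0213% higher, 0.0425% lower), and 3 of the 10, Aqp4, Aqp6 and Aqp7, had an unadjusted p under 0.05, against 8.75%. The 5 intercalated cell markers averaged 9.14 to 9.72 in wild-type and 9.14 to 9.60 in knockout kidneys, and none of them passed.

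The receptors and the urea transporter showed no genotype difference beyond the spread of animals. Avpr2, the receptor that raises cyclic AMP in principal cells, ran from 8.4996 through 8.66 to 9.10 in wild-type and from 8.35 through 8.72 to 9.01 in knockout kidneys, a difference of 0.011 (SE 0.11, 95% interval -0.23 to 0.25). Avpr1a, the vasopressin receptor that signals through calcium and is also abundant in liver, ran from 6.94 through 7.08 to 7.78 and from 6.98 through 7.24 to 7.49, a difference of 0.0036 (SE 0.11, 95% interval -0.24 to 0.25). Its highest kidney, wild-type replicate 7 at 7.78, also held the most liver transcripts (a list mean of 11.1). Wild-type replicate 3, with a liver list mean of 9.32, had the lowest Avpr1a value, 6.94. Knockout replicate 10, with a liver list mean of 9.27, read 7.32, the highest of the 10 kidneys with Y-linked transcripts, and the part of liver RNA was not tested. Slc14a2, which encodes the vasopressin-regulated urea transporters of the inner medulla, ran from 8.70 through 8.97 to 9.46 and from 8.89 through 9.02 to 9.39, a difference of 0.095 (SE 0.11, 95% interval -0.13 to 0.32). The exact permutation p was 0.925 for Avpr2, 0.975 for Avpr1a and 0.419 for Slc14a2. The sign of Avpr2 turned in 6 of 15 fits that left out 1 kidney (-0.033 to 0.078) and that of Avpr1a in 9 of 15 (-0.042 to 0.097).

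**Figure D2:**
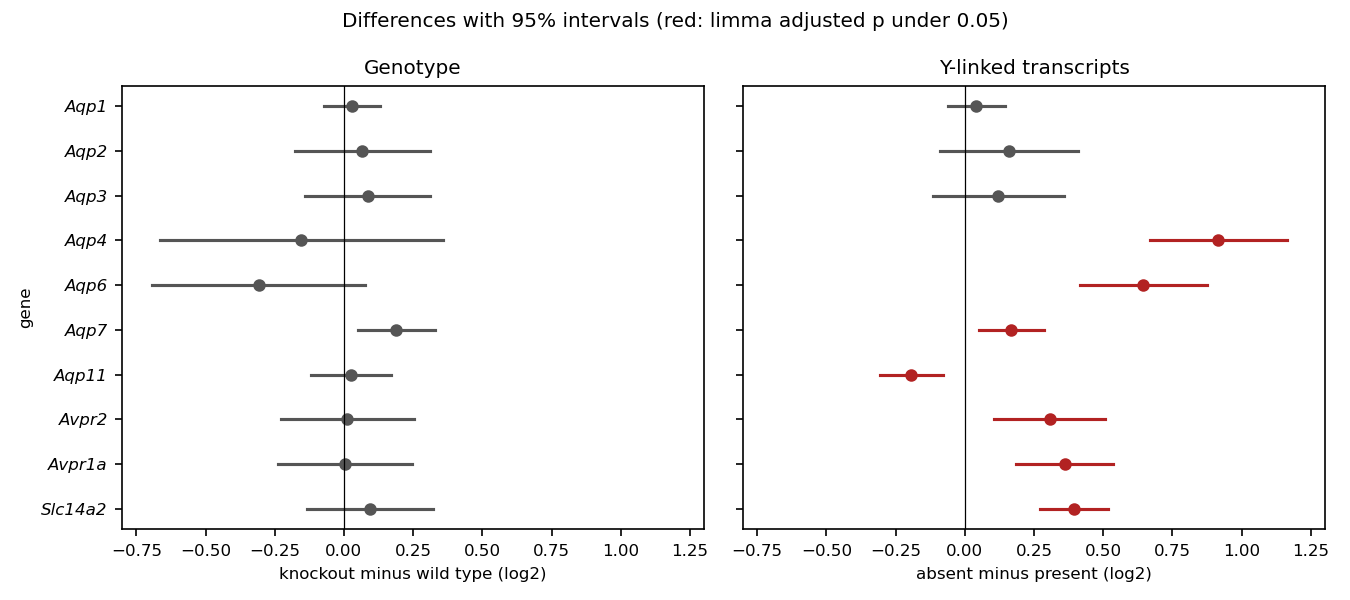
Difference of each gene on the log2 scale with its 95% interval, for knockout minus wild type (left) and for kidneys without minus kidneys with Y-linked transcripts (right), from limma fits over 23521 probe sets. Red marks a limma adjusted p under 0.05, which 0 genes reach on the left and 7 on the right.

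Several of the genes differed between kidneys without and with Y-linked transcripts: Aqp4, Aqp6, Slc14a2 and the receptors were higher in the kidneys without, and Aqp11 was lower. These sets are defined by the arrays and not by the labels, which name no sex, and the comparison was added after the data had been seen. With genotype in the fit, 7 of 10 genes passed in limma, 6 of them higher and 1 lower without Y-linked transcripts, where 24.9% of all probe sets passed (14.4% higher, 10.6% lower). The same 7 had an unadjusted p under 0.05, against 35.5% of all. The exact rank-sum test called 5 of the 10 and 5106 of all probe sets. The median difference of the 10 was 0.24, against -0.0095 over all probe sets. Kidneys without and with Y-linked transcripts did not overlap for 2 of the 10, Aqp4 and Slc14a2, as for 11.5% of all probe sets.

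Aqp4 showed the largest difference. It read 9.78 and 9.64 in the wild-type and 9.17, 9.05 and 9.21 in the knockout kidneys without Y-linked transcripts, and 8.14 to 8.90 in the 10 kidneys with them. All 5 lay above all 10, a difference of 0.92 (SE 0.12, limma adjusted p = 2.86e-05), or 1.89-fold. Slc14a2 read 9.46, 9.20, 9.22, 9.36 and 9.39 in replicates 6, 7, 13, 14 and 15, against 8.70 to 9.02 in the others. Here too all 5 were the higher, by 0.39 (SE 0.057, limma adjusted p = 0.000105), or 1.31-fold. Aqp6 read 10.23, 10.78, 9.77, 10.02 and 9.94 in the same order, against 9.25 to 10.09. It was higher by 0.65 (SE 0.11, limma adjusted p = 0.000363), or 1.56-fold, with wild-type replicate 5 at 10.09 reaching into the range without Y-linked transcripts. Aqp4, Aqp6 and Slc14a2 passed in every fit that left out 1 kidney and within each genotype taken alone.

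The receptors were higher as well. Avpr1a read 7.49, 7.78, 7.22, 7.49 and 7.32, against 6.94 to 7.32, higher by 0.36 (SE 0.082, limma adjusted p = 0.00404), and by 0.58 within wild-type against 0.19 within knockout kidneys, where it did not pass (adjusted p = 0.221). Avpr2 read 9.10, 8.66, 8.76, 8.996 and 9.01, against 8.35 to 8.92, higher by 0.31 (SE 0.094, limma adjusted p = 0.0259), and it did not pass without wild-type replicate 6 (0.25), knockout replicate 14 (0.28) or knockout replicate 15 (0.28), nor with each array centred on its median (0.26, adjusted p = 0.0591) or within either genotype (0.26 and 0.35). Aqp7 was higher by 0.17 (SE 0.055, limma adjusted p = 0.0351), a call lost without any 1 of replicates 2, 6, 7, 9, 10, 13 and 14 (adjusted p up to 0.0819), within either genotype (0.18 and 0.16), without the kidneys with liver transcripts (0.16, adjusted p = 0.139) and with arrays centred (0.12, adjusted p = 0.129). Aqp11 was the gene that was lower, at 11.08, 10.88, 10.91, 11.01 and 10.98 against 10.97 to 11.29, by -0.19 (SE 0.053, limma adjusted p = 0.0137), and it missed the threshold without wild-type replicate 7 (-0.17, adjusted p = 0.0505), without the kidneys with adrenal cortex transcripts (adjusted p = 0.0641) and within wild-type kidneys (-0.14).

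Aqp1, Aqp2 and Aqp3 did not pass. Their differences without Y-linked transcripts were 0.041 (95% interval -0.062 to 0.14), 0.16 (-0.091 to 0.41) and 0.12 (-0.12 to 0.36), and the sign for Aqp1 turned with arrays centred (-0.0077) and without wild-type replicate 6. Wild-type replicates 6 and 7 took opposite ends for Aqp2, with 10.40 the highest and 9.65 the lowest of the 15 kidneys. Markers of the same cells and of other segments moved in this comparison, where 24.9% of all probe sets passed (14.4% higher, 10.6% lower). Of 9 principal cell markers 8 were higher and passed, from Fxyd4 at 0.27 to the sodium channel subunit Scnn1b at 0.48. So were 4 of 5 intercalated cell markers, and in other segments 4 of 5 of the thick ascending limb and 3 of 4 of the distal convoluted tubule. Of 8 proximal tubule markers 2 were higher and 2 lower among those that passed. The principal cell list averaged 9.24 to 9.35 without and 8.83 to 9.07 with Y-linked transcripts, and the intercalated list 9.54 to 9.72 against 9.14 to 9.48. In whole kidney RNA, more cells of a type and more RNA per cell cannot be told apart, and the part of these cell types in the differences of the 10 genes was not tested.

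A test of whether the genotype difference itself depended on Y-linked transcripts passed for 0 of the 10 genes and 0 of all probe sets (0%) in limma, with 2 of the 10 and 1655 of all (7.04%) at an unadjusted p under 0.05. Those 2 were Aqp4 and Avpr1a. For Aqp4 the knockout kidneys differed from wild type by -0.075 with Y-linked transcripts (8.44 ± 0.28 against 8.52 ± 0.15, n = 5 each) and by -0.57 without (9.14 ± 0.086, n = 3, against 9.71 ± 0.10, n = 2). The interaction was -0.49 (SE 0.20, limma adjusted p = 0.683). For Avpr1a the differences were 0.099 and -0.29, with an interaction of -0.39 (SE 0.13, limma adjusted p = 0.609). The values without Y-linked transcripts rest on 2 wild-type kidneys.

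The genes around the receptor and its channels passed no test between genotypes either. Beside the counts that follow, 54.6% of all probe sets were higher in knockout kidneys. Of 13 measured genes of receptor signalling, 0 passed in limma and 8 were higher in knockout kidneys, with a median of 0.025. The smallest unadjusted p belonged to the cyclic AMP-responsive factor Creb1 (-0.15, SE 0.048, limma adjusted p = 0.666), followed by the phosphodiesterase Pde4d (0.13, SE 0.058, limma adjusted p = 0.896). Of 13 genes of Aqp2 vesicle trafficking, 0 passed and 10 were higher (median 0.028), with the syntaxin Stx3 at 0.18 (SE 0.075, limma adjusted p = 0.844) and the membrane linker Ezr at 0.10 (SE 0.054, limma adjusted p = 0.937). Of 6 genes of the osmotic response of the medulla, 0 passed and 3 were higher (median 0.0032). There the amino acid transporter Slc38a2 lay at -0.17 and the taurine transporter Slc6a6 at 0.14 (limma adjusted p = 0.950 for both). Of 9 principal cell markers 0 passed and 7 were higher (median 0.046). Among the 9 other aquaporins, transporters, receptors and the hormone gene Avp, 0 passed and 4 were higher (median -0.013), with Aqp12 at 0.21 (SE 0.089, limma adjusted p = 0.886) and Aqp8 at -0.26 (SE 0.12, limma adjusted p = 0.900) the nearest.

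Without Y-linked transcripts, 4 of the 13 signalling genes were higher and passed in limma and none was lower, in a comparison where 24.9% of all probe sets passed (14.4% higher, 10.6% lower). These were the cyclase Adcy6, which makes cyclic AMP downstream of Avpr2 (0.52, adjusted p = 1.65e-05), the kinase anchor Akap7 (0.22), and the arrestins Arrb1 (0.21) and Arrb2 (0.24), which desensitise receptors. In vesicle trafficking Vamp2, the vesicle protein that docks Aqp2 vesicles (0.38, adjusted p = 6.42e-05), and Ezr (0.16) were higher, while the retromer and recycling genes Vps35 (-0.18) and Snx27 (-0.30) and Vamp8 (-0.11) were lower. Of the osmotic response genes the betaine transporter Slc6a12 (0.53), Slc38a2 (0.29) and the small heat shock gene Cryab (0.26) were higher and Hspa4l (-0.37) lower. Of the 9 other aquaporins, transporters and receptors, 1 was higher and 1 lower: Slc14a1, the other urea transporter gene, by 0.26 (limma adjusted p = 0.0143), and Mip, the aquaporin of the eye lens, by -0.28 (limma adjusted p = 0.0479).

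**Figure D3:**
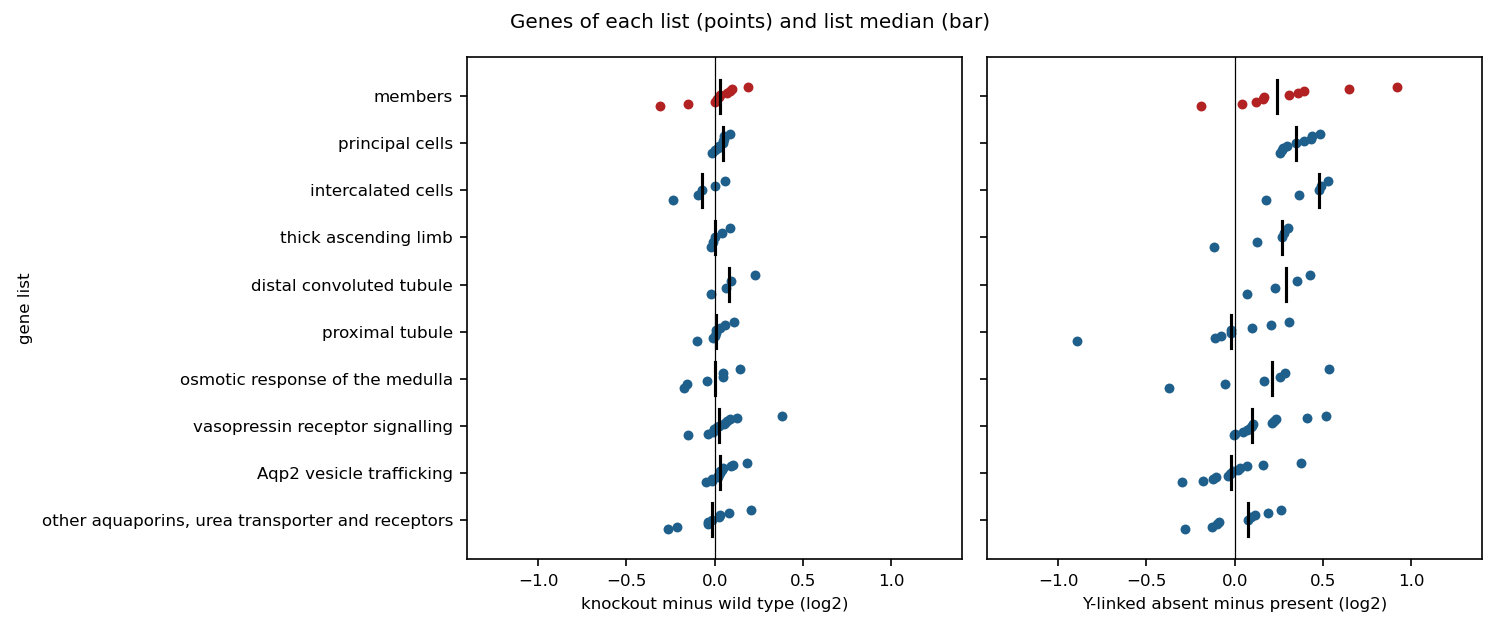
Log2 difference of each gene in 10 lists (points, the 10 genes in red) and the list median (bar), for knockout minus wild type (left) and for kidneys without minus with Y-linked transcripts (right). List medians lie between -0.070 and 0.078 on the left, and on the right the principal and intercalated cell medians reach 0.35 and 0.48.

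Among themselves the genes followed different patterns. Of 45 pairs, 16 correlated over the 15 kidneys at a permutation adjusted p under 0.05 for Pearson's r, 15 of them positively, but only 3 also did within the 10 kidneys with Y-linked transcripts: Aqp1 with Aqp2, Aqp2 with Aqp3, and Aqp3 with Slc14a2. All values of a kidney share 1 array, and p-values were adjusted over the 45 pairs. Aqp1 and Aqp2 had r = 0.90 (permutation p = 1e-05, the smallest possible here, adjusted p = 0.00045) and rho = 0.91 (permutation p = 2e-05) over 15 kidneys, r = 0.82 without the 2 kidneys farthest from the median of Aqp1, and r = 0.91 within the 10 (permutation adjusted p = 0.0018; rho = 0.88, adjusted p = 0.0355). Within the 7 kidneys with lower and the 8 with higher Aqp2, r was 0.74 and 0.76, given without a test. Aqp2 and Aqp3 had r = 0.79 (permutation p = 0.00058, adjusted p = 0.00522) and rho = 0.78 (permutation p = 0.00101), r = 0.69 without 2 kidneys and r = 0.78 within the 10 (permutation adjusted p = 0.0444), where rho did not pass (0.73, adjusted p = 0.152). For Aqp2 and Aqp3, r was -0.74 in the 7 lower kidneys, wild-type replicate 3 being low in Aqp3, and 0.83 in the 8 higher. The sides were set by the Aqp2 values themselves, and the lower kidneys span only 9.65 to 9.76. These r values therefore cannot show whether either relation holds on each side.

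Aqp3 and Slc14a2 had r = 0.86 within the 10 kidneys with Y-linked transcripts (permutation p = 0.00164, adjusted p = 0.0369; rho = 0.81, permutation p = 0.00576, adjusted p = 0.0864) and r = 0.64 without 2 of them. For Aqp4, Aqp6, Avpr1a and Slc14a2 the kidneys with and without Y-linked transcripts formed separate clusters or nearly so, and their correlations over all kidneys are not given. Within the 10 kidneys with Y-linked transcripts, Aqp4 and Aqp6 had r = 0.37 (permutation adjusted p = 0.705), Aqp4 and Slc14a2 r = 0.29 (adjusted p = 0.769) and Aqp6 and Avpr1a r = -0.16 (adjusted p = 0.897). Avpr2 and Avpr1a had r = -0.77 there (permutation p = 0.01, adjusted p = 0.101), which did not pass. By rho, Aqp7 and Slc14a2 passed there (0.90, permutation adjusted p = 0.0351), with r = 0.70 (adjusted p = 0.12).

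**Figure D4:**
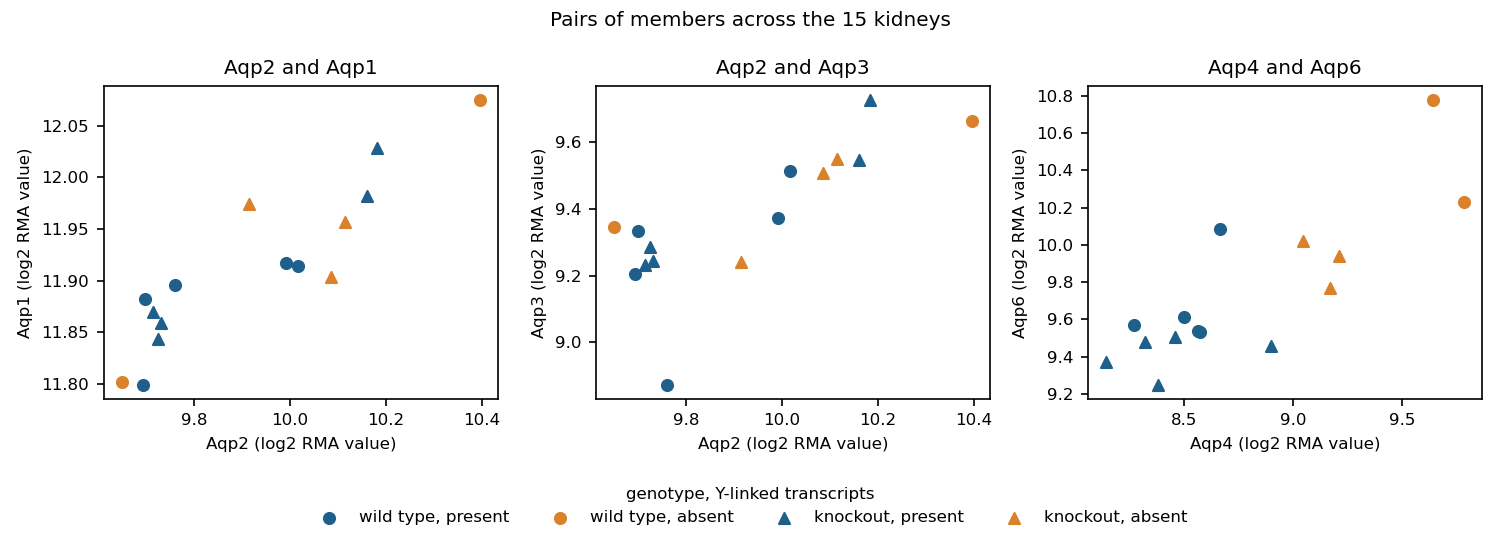
Log2 values of Aqp1 and Aqp3 against Aqp2 and of Aqp6 against Aqp4 in 15 kidneys. Circles are wild type, triangles knockout, and colour marks presence (10) or absence (5) of Y-linked transcripts. Aqp1 follows Aqp2 across both colours (r = 0.90), whereas the orange kidneys stand apart in Aqp4.

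Genes outside the set that were most alike in their pattern over the 15 kidneys, after each genotype's mean was subtracted, are given as a description with Pearson's r and no test. For Aqp6 these were Baat (0.95), a bile acid conjugating enzyme, and Atp6v0d2 (0.95), a proton pump subunit of intercalated cells, but within the 10 kidneys with Y-linked transcripts r was 0.25 for Baat and 0.83 for Atp6v0d2. The subtraction left the Y-linked difference in the values over 15 kidneys, so r within those 10 is given second in the brackets that follow. For Aqp4 they were Tbc1d8 (0.96, 0.79) and Prkag2 (0.96, 0.47). For Slc14a2 they were Large2 (0.97, 0.89) and Tm4sf1 (0.97, 0.71), and for Avpr1a Amdhd1 (0.95, 0.72) and Mcc (0.93, 0.76). For Avpr2 they were Wdr72 (0.93, 0.87) and Trappc2 (0.92, 0.78), and for Aqp11 Pgap6 (0.94, 0.94) and Bco2 (0.90, 0.85). Aqp7 was nearest to Plau (0.92, 0.89), the urokinase gene, and Vsig10l (0.91, 0.82). For Aqp1 they were Pitpnc1 (0.87, 0.89) and Slx4 (0.83, 0.70). For Aqp2 they were Gm94 (0.86, 0.80) and Flrt1 (0.86, 0.86), and for Aqp3 Lmf2 (0.89, 0.94) and Rac1 (0.87, 0.87).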

How the data were processed

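RNA from kidneys of 7 wild-type and 8 knockout mice (500 ng each) went through the Ambion WT Expression kit, per the labels' protocols. RMA was used by the authors, per the submitters' processing notes, and the deposited table holds 1 log2 value per probe set and array; software version and array build are not given in the sources used here. RMA equalises the arrays and compresses dim probe sets, so differences can understate change. No scanner files were used here, and the number of arrays limits precision.

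Of 41345 probe sets, 23521 carry 1 gene symbol in the platform annotation and were tested without a filter; 1814 carry several and 16010 are unnamed here. Symbols were updated by Entrez ID to RefSeq (GRCm38.p6) for 23328. The probe set with the highest mean stood for a gene. limma 3.58.1 in R 4.3.3 (lmFit, eBayes) was fitted on all 15 arrays, two-sided, and tested on simulated data. Exact permutation tests ran over 6435 splits of the kidneys, correlations over 100000 permutations. Animals are taken as separate because the design counts mice; otherwise p-values measure only the spread between samples. The members and lists were chosen with earlier results of these data known; of 119 list genes, 112 were measured. The named genes are the 10 members and for each member the 2 most alike genes. For the genotype, the lists of receptor signalling, vesicle trafficking, osmotic response, other aquaporins and brown fat name the 2 with the smallest unadjusted p. White and general fat names 1, and the other lists name none. In the Y-linked comparison, the named list genes are examples chosen after their values were seen. A kidney counted as holding liver, adrenal or fat transcripts where that list's mean lay over 1 log2 unit above the median kidney, and Y-linked transcripts where their mean lay above the midpoint of its range. Alternatives were trend, robust and weighted fits, other scaling, a filter on dim probe sets, covariates and left-out kidneys.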

Additional observations from a re-analysis of the deposited data

Results flagged for a closer look

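Aqp1 in wild-type replicate 6 stood apart from the other 6 wild-type kidneys: it read 12.07, with the next highest at 11.92, a gap of 0.573 of the group's range where 0.568 is the 95% critical value of Dixon's test. Chance marks about 1 in 20 groups, and 1 of the 20 groups examined here was marked.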

How the results depend on the processing

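For the genotype, 0 of the 10 genes passed under every alternative run, with 15 kidneys left out in turn (0 to 0), and 0 genes of the other lists did when a kidney was left out (0 to 0). The count of all probe sets called was 3, and 2 to 6 with 1 kidney left out. It was 14 with the Y-linked mean and 15 with presence of Y-linked transcripts as a covariate, 1 within the 5 kidneys without them, 45 with robust regression, and 0 with dim probe sets left out or by the exact rank-sum test. For the Y-linked comparison, added after seeing the data, 7 genes passed, 5 to 7 with 1 kidney left out, and 4 within knockout and 4 within wild-type kidneys. Of all probe sets 5860 passed, 4772 to 5911 with 1 left out, 3274 within knockout, 1958 within wild-type kidneys and 3886 without those with adrenal cortex transcripts. The interaction called 1 probe set with trend and 0 otherwise. Correlated pairs numbered 16, and 3 within the 10 kidneys.

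Small genotype differences changed sign, none of them past the threshold. Without the kidneys with adrenal cortex transcripts these were Aqp1 (-0.0042), Aqp11 (-0.0099), Aqp2 (-0.038), Aqp3 (-0.037) and Avpr1a (-0.015); without those with liver transcripts Aqp11 (-0.054). Within the kidneys without Y-linked transcripts they were Aqp11 (-0.017), Aqp3 (-0.071), Avpr1a (-0.29) and Slc14a2 (-0.0094), and within those with them Avpr2 (-0.045). Avpr1a and Avpr2 turned with the Y-linked mean (-0.021 and -0.010) and with Y-linked presence (-0.029 and -0.016) as a covariate, and Avpr1a with quantile normalization again (-0.0094). With 1 kidney left out the ranges crossing 0 were -0.0082 to 0.054 for Aqp11, -0.25 to 0.0009 for Aqp4, -0.042 to 0.097 for Avpr1a and -0.033 to 0.078 for Avpr2. In the Y-linked comparison Aqp1 turned with arrays centred (-0.0077) and ran from -0.0047 to 0.079 with 1 left out; its interaction turned with quantile normalization again (0.011). The causes were not tested, and some alternatives themselves bring fewer samples or probe sets. No kidney met the rule for fat transcripts and no member has another probe set, so those alternatives gave no value. No paired analysis was possible because the groups share no replicate numbers.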

Other observations

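The 4 proximal tubule markers that passed between kidneys without and with Y-linked transcripts went both ways. The organic anion transporter Slc22a6 (-0.89, limma adjusted p = 2.67e-08) and Hnf4a (-0.11, limma adjusted p = 0.0195) were lower without them. Slc22a8 (0.31, limma adjusted p = 0.00011) and Slc5a2 (0.20, limma adjusted p = 0.00571) were higher. The sodium chloride cotransporter Slc12a3 of the distal convoluted tubule was higher in the kidneys without Y-linked transcripts (0.42, limma adjusted p = 2.34e-06). Of the 6 measured white and general fat genes, 5 were higher there and passed, with a list mean of 8.37 to 8.75 against 7.80 to 8.35. Of the 5 urothelium markers measured, 2 were higher and passed. Of all probe sets, 14.4% were higher and passed and 10.6% were lower and passed.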
